A study of Mus musculus with 15 samples.

Results

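The genes described here are those of the main phase II conjugation enzymes in the mouse kidney: the glutathione S-transferases (Gst and Mgst), the UDP-glucuronosyltransferases (Ugt) and the sulfotransferases (Sult). They were chosen by name, as protein-coding genes of the mouse annotation GENCODE release 21 whose symbols belong to the Gsta, Gstk, Gstm, Gsto, Gstp, Gstt, Gstz, Mgst, Ugt1, Ugt2, Ugt3, Ugt8 and Sult subfamilies. The rule gave 68 of the 22028 protein-coding genes, of which 25 were Gst or Mgst, 22 were Ugt and 21 were Sult genes. RNA was sequenced from the kidneys of 15 wild-type C57BL/6 mice in 3 groups of 5. Control mice received saline, mice of the Ang II group (labelled AngII) received angiotensin II at 500 ng/kg/min, and mice of the QDG group (labelled AngII+QDG) received the same infusion and Qingda granule at 1.145 g/kg/d, all for 28 days. The last group is called QDG here and Ang II + QDG in the plots. QDG, short for Qingda granule, is a Chinese medicine formula. By the study's methods the mice were young adult males, the infusion came from an osmotic pump under the skin, the granule was given by gavage, and the other groups were gavaged with water. The labels give no exact age, and each library is 1 kidney sample of 1 mouse.

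Phase II enzymes couple foreign compounds and the body's own hormones, bilirubin and oxidation products to a polar group, which makes them water soluble and ready for export. GSTs use glutathione, UGTs use sugar from UDP-sugars, mostly glucuronic acid, and SULTs use sulfate from the activated donor PAPS. In the kidney these enzymes are found above all in the proximal tubule, beside the transporters that secrete the conjugates into urine. Many Gst and some Ugt genes are known targets of the transcription factors NRF2, which binds the antioxidant response element, and AHR, and Ugt1 genes are also known targets of HNF1.

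The deposited values are 1 per transcript and mouse and were taken as FPKM, fragments per kilobase of transcript scaled to the size of the library, from their steps. These steps implied 68923000 to 81329500 fragments per mouse. A gene's level was the sum of its annotated transcripts that all 15 files list. The labelled tissue was checked against its markers. All 10 proximal tubule markers on the list used were present, with a summed level of 4397 to 5497 FPKM per mouse. Some markers of other nephron parts varied widely among mice. Slc12a1 ranged from 18.0 FPKM in Ang II mouse 2 to 230 in QDG mouse 3, and Aqp2 from 63.7 in Ang II mouse 5 to 278 in QDG mouse 3. Atp6v1g3 stayed between 15.7 and 22.3 FPKM. Of 8 liver markers 4 were listed. Albumin stayed between 2.93 and 7.22 FPKM, Apoh was at 7.27 to 16.4, Serpina1a at 8.84 to 79.1 and Cyp2e1, which is not limited to liver, at 513 to 1101 FPKM. Of 6 adrenal markers only Star was listed, at up to 1.45 FPKM. Renin (Ren1), whose mRNA angiotensin II is known to lower, was 33.2 ± 3.79 FPKM (SD, n = 5) in Control and 30.1 ± 8.97 FPKM in Ang II (adjusted p = 0.718 from limma), a difference that did not pass the threshold. Any 2 mice had a Pearson correlation of 0.933 to 0.954 across the genes tested. In whole kidney, fewer cells of a type and less RNA per cell cannot be told apart.

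Promoters are shown first for Sult1d1, Ugt1a10 and Ugt1a1, the tested members whose start region holds the letters searched for HNF1, and for Ugt2b38, the most abundant Ugt gene. Promoter windows were the 300 bases from 250 before to 50 after a RefSeq start on GRCm38.p6, and 60 of the 68 members matched a window. Capitals mark a match on either strand, and each window is written 5′ to 3′ on the strand of its gene. The HNF1 letters GTTAATNAT are a part of the HNF1 motif with its spacer, and the full motif was not searched. They occurred in the windows of 8 members (13.3% of the 60) and of 0.94% of the 27025 symbols with a window. These members were Sult1d1, Ugt1a1, Ugt1a9, Ugt1a10, Sult2a3, Sult2a4, Sult2a5 and Sult2a6. The Sult2a genes are related neighbours in a cluster and the Ugt1 genes belong to a single locus, so the 8 matches are not independent. Counted in bases from the start site, the match began at −79 in Sult1d1, at −74 in Ugt1a10 and at −44 in Ugt1a1. Sult1d1 also held the AHR letters TNGCGTG in the other orientation, from −47.
Sult1d1, chr5:87568957-87569256, minus strand: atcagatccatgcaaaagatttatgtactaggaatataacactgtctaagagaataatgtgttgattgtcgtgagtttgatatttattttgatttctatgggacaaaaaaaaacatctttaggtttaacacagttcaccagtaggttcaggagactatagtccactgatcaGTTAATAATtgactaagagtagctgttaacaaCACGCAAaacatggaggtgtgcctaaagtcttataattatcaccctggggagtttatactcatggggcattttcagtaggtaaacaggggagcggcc
Ugt1a10, chr1:88055161-88055460, plus strand: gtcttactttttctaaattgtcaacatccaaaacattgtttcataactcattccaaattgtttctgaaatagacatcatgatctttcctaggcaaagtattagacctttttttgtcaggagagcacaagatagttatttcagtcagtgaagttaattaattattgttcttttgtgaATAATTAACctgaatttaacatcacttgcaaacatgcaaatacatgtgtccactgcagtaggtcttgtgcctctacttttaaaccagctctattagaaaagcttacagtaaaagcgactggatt
Ugt1a1, chr1:88211709-88212008, plus strand: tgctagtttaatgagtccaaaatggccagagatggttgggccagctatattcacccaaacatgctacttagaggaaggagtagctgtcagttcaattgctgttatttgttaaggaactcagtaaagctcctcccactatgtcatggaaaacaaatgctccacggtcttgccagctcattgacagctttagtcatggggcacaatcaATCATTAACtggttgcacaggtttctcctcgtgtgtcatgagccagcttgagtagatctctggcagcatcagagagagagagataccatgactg
Ugt2b38, chr5:87424154-87424453, minus strand, with none of the letters searched: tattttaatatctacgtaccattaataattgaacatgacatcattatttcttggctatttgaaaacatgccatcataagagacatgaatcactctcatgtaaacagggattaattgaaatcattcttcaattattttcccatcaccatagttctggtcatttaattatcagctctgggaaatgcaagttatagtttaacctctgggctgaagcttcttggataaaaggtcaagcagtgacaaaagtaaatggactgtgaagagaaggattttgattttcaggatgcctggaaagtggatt

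The antioxidant response element letters TGACNNNGC occurred in windows of 4 members, Gsta3, Gstm5, Gstm7 and Mgst1 (6.67% of the 60), and of 14.0% of all symbols. The windows of Gsta3 and Gstm5, the most abundant of these 4 genes, are shown because NRF2 is the best known regulator of Gst genes. The AHR letters occurred in windows of Gsta2, Sult1d1 and Ugt1a5 (5.84% of all symbols), and the HNF4 letters CAAAGTCCA in Sult1b1 alone (0.555% of all symbols). A match describes the letters only.
Gsta3, chr1:21240335-21240634, plus strand: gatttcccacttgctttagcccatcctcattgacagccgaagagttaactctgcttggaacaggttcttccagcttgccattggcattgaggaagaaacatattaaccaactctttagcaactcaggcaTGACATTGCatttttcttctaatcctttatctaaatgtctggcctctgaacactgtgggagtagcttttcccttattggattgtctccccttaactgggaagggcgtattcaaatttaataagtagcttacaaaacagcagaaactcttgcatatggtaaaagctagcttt
Gstm5, chr3:107895604-107895903, plus strand: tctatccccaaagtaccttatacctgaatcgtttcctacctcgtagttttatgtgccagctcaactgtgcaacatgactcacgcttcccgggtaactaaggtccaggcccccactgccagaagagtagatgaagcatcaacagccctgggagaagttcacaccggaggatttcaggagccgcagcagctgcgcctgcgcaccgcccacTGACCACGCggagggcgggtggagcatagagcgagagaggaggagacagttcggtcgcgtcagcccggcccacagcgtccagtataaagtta

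The kidney expressed most Gst genes, a part of the Ugt genes and few Sult genes. Of the 68 members, 40 had a transcript listed in at least some of the files and 39 in all 15, and 37 reached 1 FPKM in at least 5 mice and were tested. The tested genes were 20 of 25 Gst, 13 of 22 Ugt and 4 of 21 Sult genes. The files list a transcript where the larger of 2 group means was at least 0.5 FPKM, and 28 members had no transcript listed. They comprised 16 Sult genes, among them all 8 Sult2a genes, which sulfate bile acids and steroids, and Sult1e1, the estrogen sulfotransferase. Of the Sult2a genes, 4 hold the HNF1 letters. The 7 Ugt genes with no transcript listed were Ugt1a5, Ugt1a8, Ugt2a1, Ugt2a2, Ugt2b1, Ugt2b35 and Ugt2b36, and the 5 Gst genes were Gstm3, Gsto2, Gstp3, Gstt4 and Mgst2. Sult1b1 and Ugt2a3 were listed in every file but stayed under the limit, with means of 0.569 and 0.597 FPKM over the 15 mice. Ugt1a9 was listed only in the Ang II and QDG files, where it was 20.1 FPKM in QDG mouse 5 and at most 0.0691 FPKM in the other 9.

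Members made up 0.550% to 0.683% of the FPKM of annotated transcripts in a mouse. The 5 most abundant, Sult1d1, Ugt2b38, Gstm1, Ugt3a2 and Gstp1, held 46.2% to 58.5% of the members' FPKM, and the 10 most abundant held 69.3% to 78.0%. In Ugt3a2, however, 80.6% to 90.3% of the FPKM was a retained-intron transcript, and its protein-coding transcript was at 17.6 to 55.9 FPKM. FPKM is per length, so these levels can be set beside each other. Sult1d1, which sulfates catecholamines and other small phenols, and Ugt2b38, a steroid- and xenobiotic-type UGT, stood at the top with means of 462 and 447 FPKM over the 15 mice. Their order was not stable: Sult1d1 was higher in 6 of 15 mice, in 2 of 5 Control, 0 of 5 Ang II and 4 of 5 QDG mice. These genes are also neighbours, 130 kb apart on chromosome 5. Further down, Ugt2b38 was above Gstm1 in 13 of 15 mice and Gstm1 above Ugt3a2 in 13 of 15, and from there on to Gstt2 each gene was above the next in 10 to 12 of 15 mice, so no pair of neighbours in this order was separated in every mouse.

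**Figure D1:**
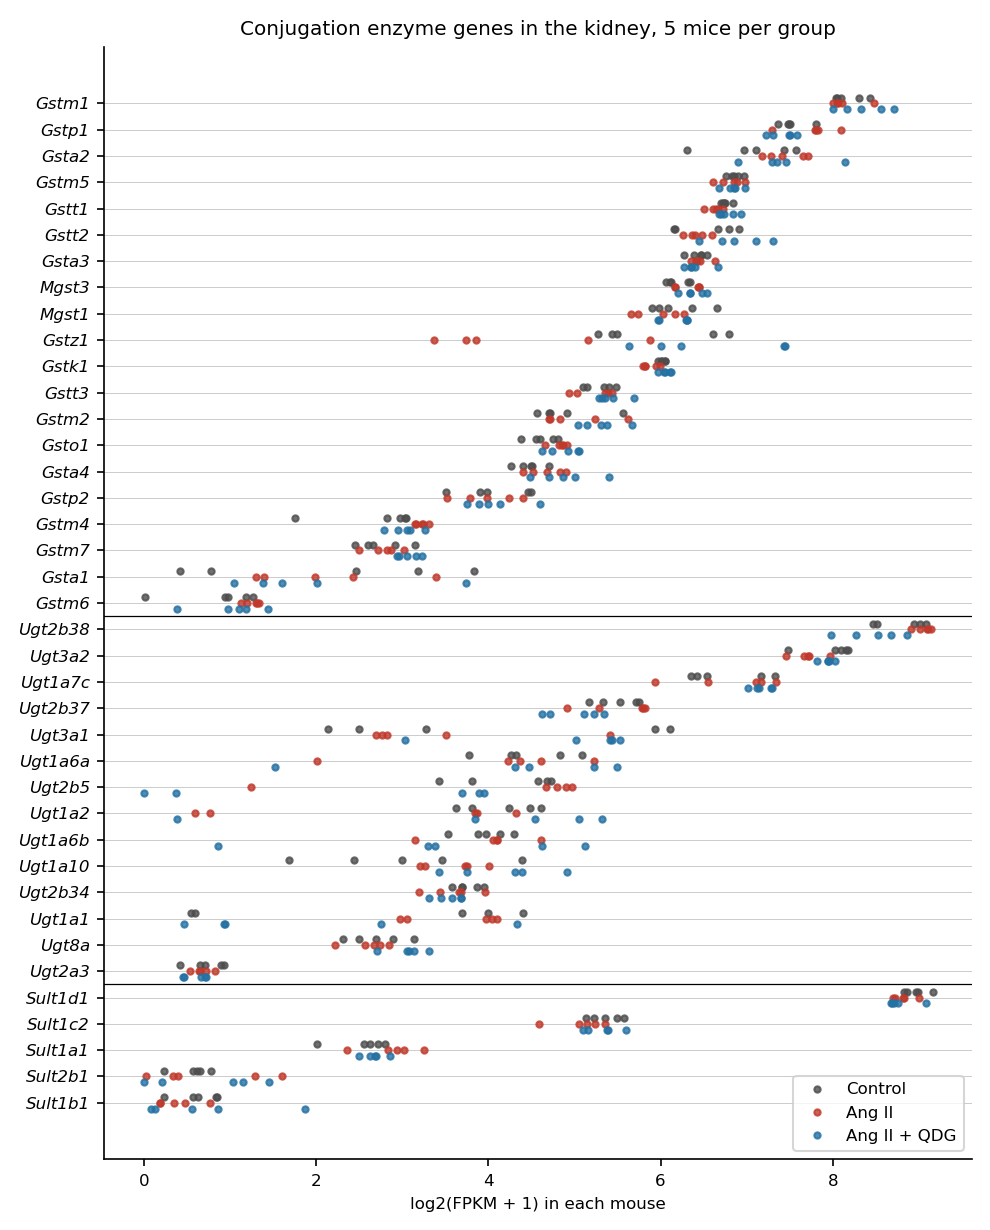
Level of the 39 members listed in all files, as log2(FPKM + 1), with 1 point per mouse, 5 mice in each group and the genes ordered by mean within the Gst, Ugt and Sult families. Sult1d1 and Ugt2b38 lie highest, at 462 and 447 FPKM on average, and Ugt1a1, Ugt1a2, Ugt2b5, Ugt3a1 and Gsta1 spread widely within at least 1 group each.

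The first question was whether angiotensin II changed these enzymes. The test was limma's moderated test on log2(FPKM + 1) in 1 model of the 15 mice, with p-values adjusted by Benjamini-Hochberg over all 12372 genes tested, and the study's own threshold, a fold change of at least 2 (taken here on the same log2(FPKM + 1) scale) with an unadjusted p under 0.05, was counted beside it. For Ang II against Control, 0 of 37 members passed an adjusted p under 0.05, where 5.94% of all genes (735 of 12372) did. At an unadjusted p under 0.05 there were 4 members, Gstk1, Gstz1 and Ugt3a2 with lower and Gstm4 with higher means in Ang II, against 22.7% of all genes. At the study's threshold there was 1 member, Gstz1, against 1.05% of all genes. The groups did not overlap in 1 member, Gstm4, against 7.91% of all genes. The median log2 fold change was −0.04 over the members and 0.08 over all genes, and 18 of 37 members (48.6%) had a higher mean in Ang II, against 64.8% of all genes. After dividing each mouse by its median ratio to the gene means, the median over all genes was 0.0059 and that of the members −0.09. The same scaling changed the split of all calls for Ang II against Control from 612 higher and 123 lower (83.3% higher) to 234 and 264 (47.0% higher), and quantile normalization gave 227 and 268 (45.9% higher). The members' median changed sign, to 0.02, with a pseudocount of 0.1 and with protein-coding transcripts only, and to 0.03 without Control mouse 2.
Gstm4, a mu-class enzyme, had 6.07, 7.16, 2.37, 6.86 and 7.23 FPKM in Control, 8.47, 7.84, 7.96, 8.94 and 8.41 with Ang II and 7.29, 7.49, 6.71, 8.58 and 5.93 in QDG. Every Ang II mouse lay above every Control mouse, and Control mouse 3 lay far below the other Control mice. Its log2 fold change was 0.50 (standard error, SE, 0.20, adjusted p = 0.160). The separation rests on leaving out ENSMUST00000178808, a protein-coding Gstm4 transcript listed only in the Control files: with it Control mouse 4 was at 8.72 FPKM, above 4 of 5 Ang II mice, and the log2 fold change was 0.36 (adjusted p = 0.255).

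The second question was whether QDG changed them in mice that received angiotensin II. For QDG against Ang II, 0 of 37 members passed the adjusted threshold, where 1.81% of all genes did. At an unadjusted p under 0.05 there were 9 members, Gstk1, Gstm7, Gstt1, Gstt2, Gstz1 and Ugt8a with higher and Gstp1, Ugt2b37 and Ugt2b38 with lower means under QDG, against 16.4% of all genes. Gstz1 passed the study's threshold, against 0.816% of all genes, and Ugt2b38 was the 1 member without overlap between the groups, against 5.00% of all genes. The median log2 fold change was 0.09 over the members and −0.02 over all genes. Of all calls here 29.0% were higher under QDG (65 of 224), and 43.1% were with median scaling and 50% with quantile normalization. For QDG against Control, 0 of 37 members passed the adjusted threshold (0.129% of all genes), 1 passed the study's threshold (Ugt1a10, against 0.727% of all genes), and none was without overlap (3.64% of all genes). At an unadjusted p under 0.05 there were 7 members, Gsta4, Gstm7, Gsto1, Mgst3 and Ugt1a10 with higher and Ugt2b37 and Ugt2b38 with lower means in QDG, against 14.4% of all genes. The 3 comparisons share groups, so they are not independent of each other.

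The intervals give the range of differences these samples allow. In each of the 3 comparisons the 95% interval of 28 of 37 members lay within ±1 on the log2(FPKM + 1) scale, against 83.1%, 84.5% and 84.4% of all genes. For genes far above 1 FPKM this is close to a fold change of 2 either way, but it sets no such limit for low genes such as Sult2b1 and Gstm6. All 4 Sult genes and 18 of 20 Gst genes were among them, but only 6 of 13 Ugt genes. Gstm5, which conjugates a wide range of electrophiles, had 115.4 ± 6.40, 111.8 ± 11.1 and 113.4 ± 8.55 FPKM (SD, n = 5) in Control, Ang II and QDG, with an interval of −0.21 to 0.11 for Ang II against Control. Gsta3, an alpha-class GST known for aflatoxin epoxide and steroid isomerization, was at 85.3 ± 5.85, 86.8 ± 6.85 and 84.5 ± 9.55 FPKM, with an interval of −0.14 to 0.19. These are the genes whose promoters with antioxidant response element letters are printed above.

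**Figure D2:**
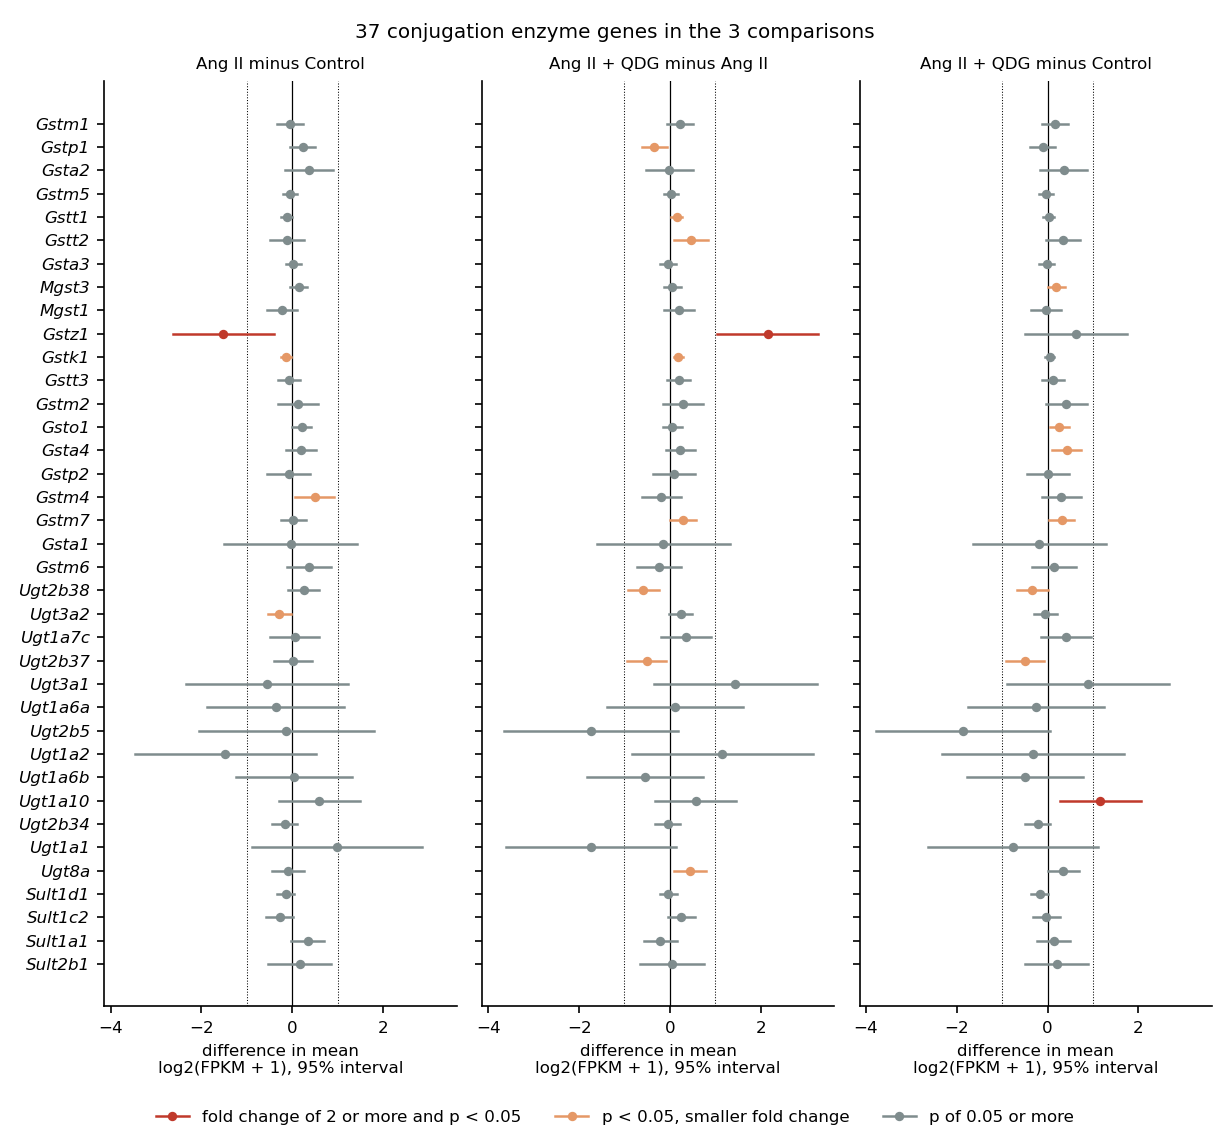
Difference in mean log2(FPKM + 1) for the 37 members tested, with 95% intervals from limma, in Ang II minus Control, QDG minus Ang II and QDG minus Control. Dotted lines mark ±1 on this scale, and red marks Gstz1 (−1.52 and 2.15 in the left and middle panels) and Ugt1a10 (1.16 in the right panel), which passed the study's threshold but not the adjusted one.

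Gstz1 had its lowest mean in Ang II and its highest in QDG, at 25.6 ± 20.7 and 106 ± 61.1 FPKM, with Control at 66.1 ± 34.4 (SD, n = 5). It encodes maleylacetoacetate isomerase, which serves tyrosine breakdown and also clears dichloroacetate, and lies on GRCm38 at chromosome 12, 87147165 to 87164723 (ENSMUSG00000021033). Control mice 1 to 5 had 42.1, 44.1, 96.9, 37.6 and 109.9 FPKM. Ang II mice 1 to 5 had 34.7, 12.4, 57.9, 9.35 and 13.5 FPKM. QDG mice 1 to 5 had 63.1, 172, 48.7, 74.6 and 172 FPKM. Ang II mice 1, 2, 4 and 5 lay below all Control mice, Ang II mouse 3 lay above 3 of them and above 1 QDG mouse, and all QDG mice lay above the other 4 Ang II mice.
The log2 fold change was −1.52 (SE 0.52, adjusted p = 0.10) for Ang II against Control and 2.15 (SE 0.52, adjusted p = 0.0523) for QDG against Ang II. Leaving out each mouse in turn gave −1.89 to −1.26 and 1.89 to 2.52, and the study's threshold was passed every time. Without Ang II mouse 3 both adjusted p-values were under 0.05, at 0.0438 and 0.0313. The difference between QDG and Control was 0.63 with an interval of −0.49 to 1.75. The implied number of fragments was 1082 to 21543 per mouse, so counting error is small beside a within-group SD of 0.89 on the log2 scale, which was larger than that of 95.6% of genes tested. The transcript ENSMUST00000063117 held 49.3% to 97.0% of the gene's FPKM and alone gave −1.55 and 2.19 (adjusted p = 0.225 and 0.156 over the 28812 transcripts tested).

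Gstk1, the mitochondrial and peroxisomal kappa-class GST, had the smallest within-group SD of the members tested and a small difference in the same directions. It lies at chromosome 6, 42245935 to 42250447 (ENSMUSG00000029864). Control mice had 63.8, 65.0, 61.6, 65.2 and 63.3 FPKM. Ang II mice had 55.2, 55.2, 54.3, 62.9 and 60.7 FPKM. QDG mice had 64.6, 68.2, 65.3, 68.7 and 61.8 FPKM. Only Ang II mouse 4 reached the other groups' range.
The log2 fold change was −0.14 (SE 0.05, adjusted p = 0.104) for Ang II against Control and 0.19 (SE 0.05, adjusted p = 0.0727) for QDG against Ang II. Its within-group SD of 0.07 was larger than that of only 2.01% of genes. Whether it was called depended on the scaling between mice: with median scaling the change for Ang II against Control was −0.24 (adjusted p = 0.0216), and with quantile normalization the values were −0.22 (adjusted p = 0.0273) and 0.25 (adjusted p = 0.0271). Without Ang II mouse 4 the second value was 0.22 (adjusted p = 0.0478).

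Gstt1 and Gstp1 gave smaller or less even differences. Gstt1, the theta-class enzyme that acts on halomethanes and small epoxides (chromosome 10, 75783813 to 75798584), had 103 to 113 FPKM in Control (median 106), 89.98 to 105 with Ang II (median 99.2) and 101 to 121 in QDG (median 106). Its log2 fold changes were −0.12 (SE 0.06, adjusted p = 0.227) and 0.15 (SE 0.06, adjusted p = 0.210), and with median scaling the first was −0.21 (adjusted p = 0.0327). Gstp1, the pi-class GST that is known to be induced in many stressed epithelia (chromosome 19, 4035407 to 4037985), had 164, 179.9, 178, 223 and 179 FPKM in Control, 223, 271, 155, 226 and 221 with Ang II and 179, 191, 157, 148 and 179.6 in QDG. Here 4 of 5 Ang II mice lay above all QDG mice and mouse 3 lay below 4 of them. The log2 fold changes were 0.23 (SE 0.13, adjusted p = 0.305) and −0.34 (SE 0.13, adjusted p = 0.192), and without Ang II mouse 3 the latter was −0.46 (adjusted p = 0.0433).

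Gstt2, a further theta-class gene (chromosome 10, 75831114 to 75837424), had 69.98 to 119 FPKM in Control (median 101), 75.5 to 95.8 with Ang II (median 83.1) and 86.2 to 157 in QDG (median 114), and the ranges overlap. Its log2 fold change was −0.12 (SE 0.17, adjusted p = 0.734) for Ang II against Control and 0.46 (SE 0.17, adjusted p = 0.192) for QDG against Ang II, the latter with an interval of 0.09 to 0.84. For Gstm1, Gsta2, Gsto1 and Mgst3 the intervals included 0 in both comparisons with the Ang II group. Gstm1, the most abundant mu-class enzyme (chromosome 3, 108012255 to 108017973), had 261 to 344 FPKM in Control (median 272), 255 to 356 with Ang II (median 266) and 255 to 416 in QDG (median 321), with a log2 fold change of −0.04 (SE 0.13, adjusted p = 0.889) and 0.21 (SE 0.13, adjusted p = 0.465). Gsta2, an alpha-class enzyme that reduces lipid peroxides (chromosome 9, 78331018 to 78355788), had 77.8 to 189.5 FPKM in Control (median 137), 143 to 208 with Ang II (median 169) and 119 to 282 in QDG (median 162), with 0.37 (SE 0.24, adjusted p = 0.399) and −0.02 (SE 0.24, adjusted p = 0.98). Single mice moved the Gsta2 values, from 0.18 without Control mouse 1 to 0.49 without Control mouse 3 in the first comparison, and from −0.20 without QDG mouse 2 to 0.11 without QDG mouse 5 in the second.
Gsto1, the omega-class enzyme that reduces dehydroascorbate and methylated arsenic (chromosome 19, 47854970 to 47864790), had group means of 23.7 ± 2.88, 27.3 ± 1.86 and 28.5 ± 3.75 FPKM (SD, n = 5), with ranges of 19.7 to 27.0, 24.2 to 29.1 and 23.6 to 32.1 that overlap. Its log2 fold change was 0.21 (SE 0.10, adjusted p = 0.233) for Ang II against Control, 0.05 (SE 0.10, adjusted p = 0.845) for QDG against Ang II and 0.26 (SE 0.10, adjusted p = 0.257) for QDG against Control. Mgst3, a membrane-bound enzyme with glutathione peroxidase activity (chromosome 1, 167371966 to 167393841), had means of 72.2 ± 6.55, 79.9 ± 8.29 and 82.6 ± 7.58 FPKM, and its 3 log2 fold changes were 0.14 (SE 0.09, adjusted p = 0.349), 0.05 (SE 0.09, adjusted p = 0.834) and 0.19 (SE 0.09, adjusted p = 0.327).
Summed over the family, the Gst genes had 1441 ± 109 FPKM in Control, 1441 ± 61.8 with Ang II and 1607 ± 194 in QDG, where mouse 2 alone had 1938 and the others 1449 to 1604.

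Ugt2b38 was the Ugt gene with separate groups under QDG. It encodes a UGT2B enzyme, the subfamily that glucuronidates steroids and bile acids, and lies at chromosome 5, 87409942 to 87424203 (ENSMUSG00000061906). Control mice had 489.7, 363, 541, 516 and 352 FPKM. Ang II mice had 480.4, 561, 551, 543 and 514 FPKM. QDG mice had 463, 252, 308, 367 and 406 FPKM. Every QDG mouse lay below every Ang II mouse, while the Control mice lay between 352 and 541 FPKM.
The log2 fold change was −0.59 (SE 0.16, adjusted p = 0.0727) for QDG against Ang II, 0.25 (SE 0.16, adjusted p = 0.382) for Ang II against Control and −0.34 (SE 0.16, adjusted p = 0.344) for QDG against Control. Leaving out a mouse gave −0.69 to −0.47 for the first of these, and without QDG mouse 1 its adjusted p was 0.0413. Ugt2b37, on the same chromosome, had 44.7 ± 7.73 in Control, 46.1 ± 11.98 in Ang II and 31.7 ± 6.97 FPKM in QDG (SD, n = 5), with a log2 fold change of −0.51 (SE 0.20, adjusted p = 0.201). Ugt2b5 and Ugt2b38 share 24.7% and 24.2% of their 100-base words with each other. Ugt2b5 read 11.9, 13.8, 14.4, 0.299 and 0 FPKM in QDG and 26.8, 24.5, 28.9, 30.3 and 1.36 FPKM in Ang II, so a drop to near 0 occurred in both groups. Ugt2b34 showed 11.2 ± 2.40 and 10.7 ± 1.26 FPKM in these groups. The sum of Ugt2b38 and Ugt2b5 was 472 ± 95.4, 552 ± 38.0 and 367 ± 79.8 FPKM in Control, Ang II and QDG, and that of the 5 listed Ugt2 genes was 529.6 ± 97.4, 610.3 ± 32.4 and 410.1 ± 77.1 FPKM.

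Of the 2 listed transcripts of Ugt3a2, 1 was called lower in Ang II. UGT3A enzymes use sugars other than glucuronic acid as the donor. The gene, at chromosome 15, 9335550 to 9370955 (ENSMUSG00000049152), had 289, 178, 283, 272 and 259 FPKM in Control, 209, 202, 208, 248 and 175 with Ang II and 258, 225, 246, 244 and 247 in QDG, with log2 fold changes of −0.28 (SE 0.12, adjusted p = 0.182) and 0.23 (SE 0.12, adjusted p = 0.363). Control mouse 2 was far below the other Control mice, and without it the first value was −0.41 (adjusted p = 0.0148). The retained-intron transcript ENSMUST00000144755 held 80.6% to 90.3% of the gene's FPKM. The protein-coding transcript ENSMUST00000072403 had 55.9, 33.2, 39.3, 32.7 and 39.5 FPKM in Control, 20.3, 22.9, 23.5, 28.1 and 17.6 with Ang II and 32.1, 31.2, 36.2, 31.4 and 30.2 in QDG, and Ang II lay below both other groups in every mouse. It fell by 0.80 on the log2 scale for Ang II against Control (SE 0.14, adjusted p = 0.0232 over all transcripts tested) and differed by 0.51 (SE 0.14, adjusted p = 0.165) for QDG against Ang II.

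Across the 65 member transcripts tested, ENSMUST00000072403 was the 1 call at an adjusted p under 0.05 for Ang II against Control, against 0.691% of all transcripts, and there was none for QDG against Ang II (0.0972% of all transcripts) or QDG against Control (0.0243%). At the study's threshold the member transcripts gave 1, 1 and 2 DETs (differentially expressed transcripts), against 2.88%, 2.24% and 2.02% of all transcripts. These were ENSMUST00000063117 of Gstz1 in the first and second comparison, and ENSMUST00000113142 of Ugt1a10 (log2 fold change 1.32, adjusted p = 0.295) and ENSMUST00000169365 of Gstm5 (−1.25, adjusted p = 0.443) in the third. The summed Gstm5 level had an interval of −0.18 to 0.13 in that comparison. The main transcript of Gstt3, ENSMUST00000001715, had 26.4 ± 2.39 FPKM in Ang II and 35.4 ± 3.16 in QDG (SD, n = 5), a log2 fold change of 0.41 (SE 0.09, adjusted p = 0.078).

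**Figure D3:**
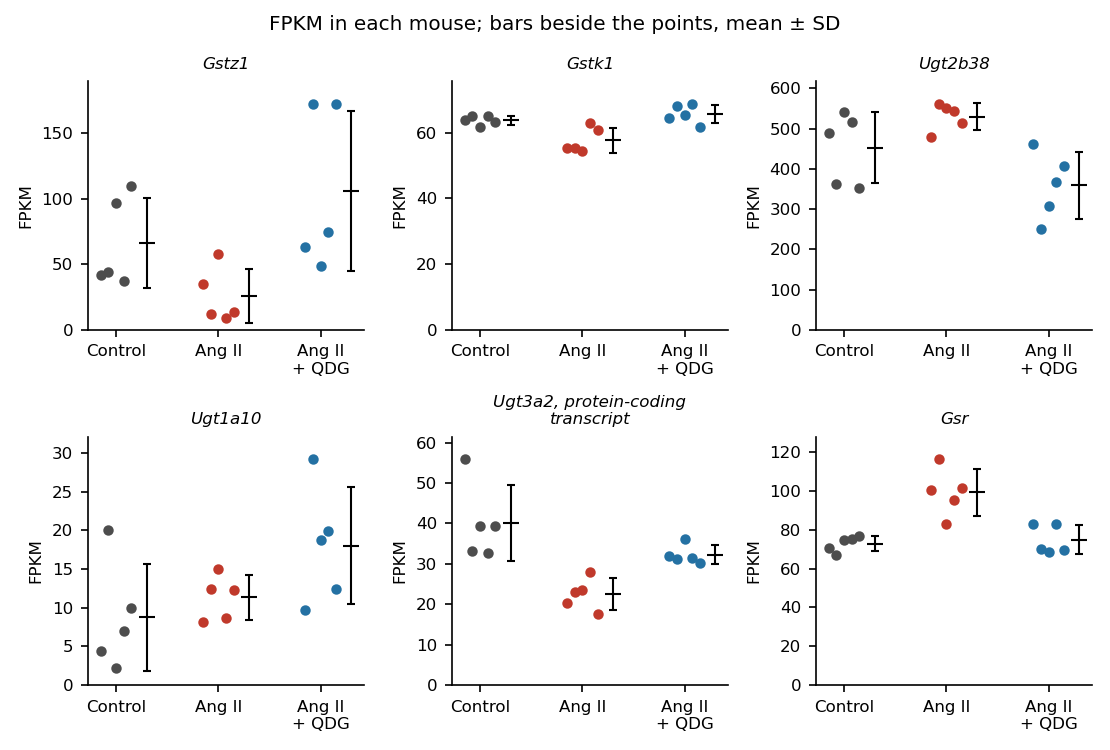
FPKM in each mouse for Gstz1, Gstk1, Ugt2b38, Ugt1a10, the protein-coding transcript of Ugt3a2 and the glutathione reductase gene Gsr, with 5 mice per group and the mean ± SD beside the points; all axes start at 0. QDG lies wholly below Ang II in Ugt2b38 (252 to 463 against 480.4 to 561 FPKM), and the Ugt3a2 transcript is lowest in Ang II (17.6 to 28.1 FPKM).

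Ugt1a10, the Ugt1 gene best known from the gut, had a higher mean in QDG than in Control, past the study's threshold but not the adjusted one. It lies at chromosome 1, 88055388 to 88219004 (ENSMUSG00000090165). Control mice had 4.43, 20.04, 2.22, 6.96 and 10.01 FPKM. Ang II mice had 8.203, 12.4, 15.02, 8.60 and 12.3 FPKM. QDG mice had 9.73, 29.2, 18.8, 19.9 and 12.4 FPKM. Control mouse 2 lay above all Ang II mice and above 4 of 5 QDG mice.
The log2 fold change was 1.16 (SE 0.42, adjusted p = 0.227) for QDG against Control, 0.60 (SE 0.42, adjusted p = 0.434) for Ang II against Control and 0.57 (SE 0.42, adjusted p = 0.543) for QDG against Ang II. The first of these dropped below a fold change of 2 without Control mouse 3 (0.83) and without QDG mouse 2 (0.97).

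The Ugt1 genes are 9 alternative first exons joined to shared later exons on chromosome 1, and single genes varied more within groups than their sum. Of the 100-base words of a Ugt1 gene's listed transcripts, 37.3% (Ugt1a7c) to 70.9% (Ugt1a6b) were also found in another gene of the locus. Ugt1a1, the bilirubin UGT, read 20.1, 0.509, 14.96, 11.98 and 0.456 FPKM in Control. Ugt1a2 read 13.4, 19.0, 0.514, 0.704 and 13.5 FPKM in Ang II. Ugt1a6b read 9.39, 33.9, 0.820, 8.84 and 23.7 FPKM in QDG. Their within-group SDs on the log2 scale were 1.49, 1.59 and 1.02, but that of the sum of the 6 tested Ugt1 genes was 0.30, larger than that of 62.4% of genes.
The sum was 185 ± 41.5 in Control, 187 ± 44.4 in Ang II and 228 ± 30.9 FPKM in QDG (SD, n = 5), and the 3 ranges overlap. Ugt1a7c, the phenol-type UGT that holds most of it (chromosome 1, 88095062 to 88220002), had 80.8 to 160.0 FPKM in Control (median 91.7), 60.3 to 161 with Ang II (median 137) and 128 to 156 in QDG (median 139.9), with log2 fold changes of 0.06 (SE 0.25, adjusted p = 0.927) and 0.35 (SE 0.25, adjusted p = 0.533).

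**Figure D4:**
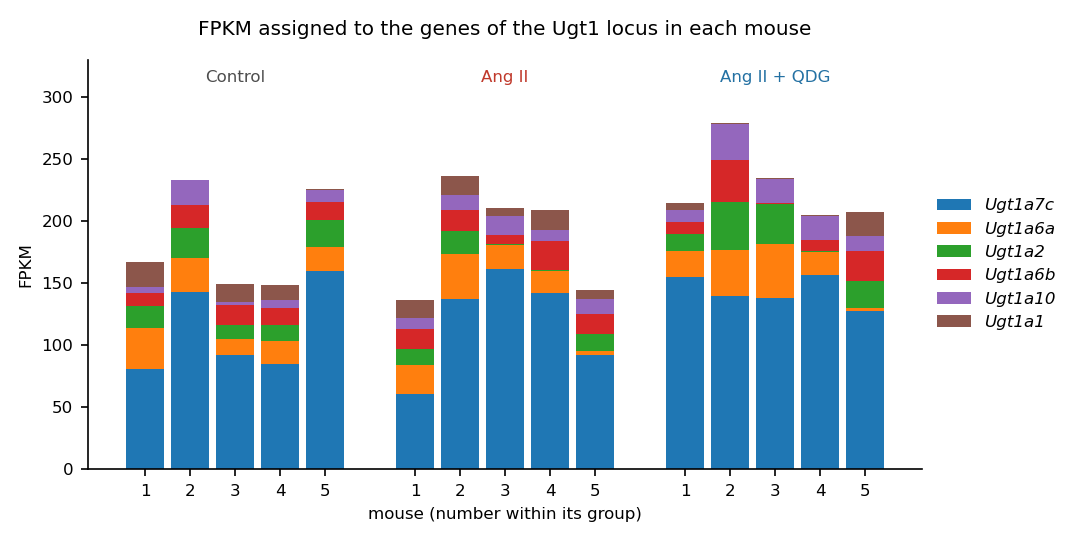
FPKM of the 6 tested genes of the Ugt1 locus, stacked for each of the 15 mice. The total runs from 136 to 279 FPKM with Ugt1a7c as the largest part, while Ugt1a1, Ugt1a2, Ugt1a6a and Ugt1a6b nearly vanish in single mice.

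Shared sequence and spread went together over the members, with exceptions. The 8 members with over 50% of their 100-base words in another gene had a median within-group SD of 1.09 on the log2 scale, the 24 members under 10% had 0.24, and the median of all genes tested was 0.23. These members share their libraries and include 5 genes of a single locus, so the values are a description. Gsta1, at 81.8% shared, mostly with the gene Gm3776, ranged from 0.335 to 13.2 FPKM in Control. Gstp1 and Gstp2 shared 52.8% and 63.5%, and their SDs were only 0.21 and 0.37. Ugt3a1 and Gstz1 shared none, yet had SDs of 1.42 and 0.89: Ugt3a1, the neighbour of Ugt3a2, read 68.3, 3.42, 60.2, 4.66 and 8.67 FPKM in Control. Assembled transcripts without gene names, which were not added to any gene, held 9.57% to 11.9% of the FPKM, and whether they took reads of these genes was not tested. Among the 49 member transcripts with a mouse above 10 FPKM, 16 also had a mouse of that same group below 1 FPKM.

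**Figure D5:**
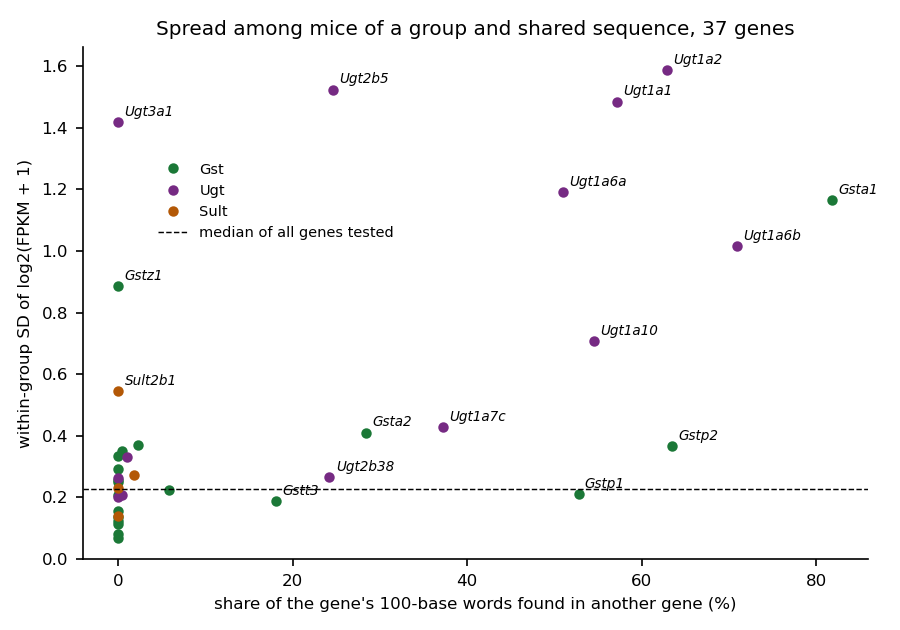
Within-group SD of log2(FPKM + 1) against the share of a gene's 100-base words that another gene's transcripts also hold, for the 37 members tested, coloured by family, with the median SD of all genes (0.23) as a dashed line. Most members that share nothing lie near the line, most Ugt1 genes and Gsta1 lie high, Ugt3a1 and Gstz1 lie high with no shared sequence, and Ugt2b5 lies high with 24.7% shared.

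The remaining leading Ugt and Sult genes did not pass the test. Ugt8a makes galactosylceramide, a membrane lipid, and not drug conjugates (chromosome 3, 125865271 to 125938619), and had 3.97, 5.49, 7.81, 4.66 and 6.42 FPKM in Control, 3.67, 5.70, 5.38, 6.21 and 4.93 with Ang II and 5.52, 8.89, 7.79, 7.30 and 7.45 in QDG, with a log2 fold change of 0.44 (SE 0.16, adjusted p = 0.182) for QDG against Ang II. Sult1d1 (chromosome 5, 87554645 to 87569027) had 452, 505, 462, 497 and 569.6 FPKM in Control, 422, 414, 510.3, 448 and 452 with Ang II and 409, 430.3, 538, 406 and 418 in QDG. The treated mice lay below the lowest Control mouse, 451.7 FPKM, apart from mouse 3 of each treated group and Ang II mouse 5 at 451.9 FPKM. Its log2 fold changes were −0.14 (SE 0.09, adjusted p = 0.352), −0.03 (SE 0.09, adjusted p = 0.895) and −0.18 (SE 0.09, adjusted p = 0.371) in the 3 comparisons.
Sult2b1, the cholesterol sulfotransferase (chromosome 7, 45729983 to 45784669), was near the limit in every group, at 0.497 ± 0.200, 0.815 ± 0.873 and 0.834 ± 0.738 FPKM (SD, n = 5), with an interval of −0.54 to 0.86 for Ang II against Control. Sult1c2, a phenol and hydroxyarylamine sulfotransferase, had 40.2 ± 5.20, 33.3 ± 6.40 and 39.4 ± 5.61 FPKM, and Sult1a1, the phenol sulfotransferase, had 4.92 ± 1.14, 6.52 ± 1.59 and 5.40 ± 0.578 FPKM. Summed, the Sult genes had 543 ± 44.3, 490.2 ± 33.2 and 487 ± 56.1 FPKM and the Ugt genes 1005 ± 118, 1025 ± 94.99 and 923 ± 69.6 FPKM in Control, Ang II and QDG.

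Some genes around the conjugation enzymes passed the test. Of 17 tested genes that make or move UDP-glucuronic acid, PAPS and glutathione, 3 rose and none fell for Ang II against Control at an adjusted p under 0.05, where 5.94% of all genes were called and 83.3% of those calls were higher. Gsr, glutathione reductase, which regenerates glutathione, had 70.6, 67.2, 74.7, 75.2 and 76.8 FPKM in Control, 100.3, 116, 82.9, 95.5 and 102 with Ang II and 83.3, 70.3, 68.4, 83.02 and 69.9 in QDG, and every Ang II mouse except mouse 3 was above all others. It rose by 0.43 in log2 terms (SE 0.09, adjusted p = 0.0139) for Ang II against Control and fell by 0.40 (SE 0.09, adjusted p = 0.0341) for QDG against Ang II. Slc35d1, which carries UDP-glucuronic acid into the endoplasmic reticulum, rose from 13.6 ± 1.01 to 16.9 ± 1.27 FPKM (a log2 change of 0.29, adjusted p = 0.0294). Papss1, which makes PAPS, rose from 33.1 ± 3.33 to 42.9 ± 5.19 FPKM (0.36, adjusted p = 0.0461). Papss2, the other PAPS gene on the list, read 40.6, 81.4, 0, 63.9 and 0 FPKM in Control. It read 0, 47.2, 0, 0 and 46.4 FPKM with Ang II and 0, 90.9, 0, 0 and 0 in QDG. A change in PAPS supply as a whole therefore cannot be read from Papss1. With median scaling Slc35d1 was at 0.21 (adjusted p = 0.0914) and Papss1 at 0.27 (adjusted p = 0.150), no longer called, while Gsr was at 0.34 (adjusted p = 0.0415). Leaving out each mouse in turn, Gsr was called 15 of 15 times for Ang II against Control (0.38 to 0.50) and 8 of 15 times for QDG against Ang II (−0.46 to −0.34, adjusted p of 0.0235 to 0.0873), Slc35d1 9 times and Papss1 6 times. The median over this list was −0.01, against 0.08 over all genes.

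Among 17 tested genes of further steps and reverse reactions, 1 was called, for QDG against Ang II, where 1.81% of all genes were. Acy3, an aminoacylase that deacetylates mercapturates, the end products of glutathione conjugation, fell by 0.93 on the log2 scale (SE 0.15, adjusted p = 0.0141) from 13.6 ± 0.512 in Ang II to 6.78 ± 1.63 FPKM in QDG (SD, n = 5), with Control at 9.76 ± 2.25. The call held 15 of 15 times when a mouse was left out. Among 8 tested exporters 1 was called for Ang II against Control, against 5.94% of all genes. Abcg2, an apical pump for sulfate and other conjugates, fell from 246 ± 20.8 to 207 ± 7.49 FPKM (a log2 change of −0.25, adjusted p = 0.0359). It was −0.34 with median scaling (adjusted p = 0.0249), and was called 6 of 15 times when a mouse was left out (adjusted p of 0.0122 to 0.0895). Abcc2, the apical pump for glucuronide and glutathione conjugates, had a log2 difference of −0.42 (adjusted p = 0.0811) for QDG against Ang II.
Among 16 tested regulators 1 was called for Ang II against Control, against the 5.94% of all genes. Mafk, a small MAF partner of NRF2, rose from 10.6 ± 0.821 to 14.2 ± 1.84 FPKM (0.39, adjusted p = 0.0260), but not with median scaling (0.30, adjusted p = 0.0766), and in 10 of 15 fits without 1 mouse. Of 11 tested NRF2 targets outside the conjugation genes, Gsr, which is also on the glutathione list, was the 1 called in either direction. It was called for Ang II against Control and for QDG against Ang II, where 5.94% and 1.81% of all genes were. The median of that list was 0.36 for Ang II against Control and −0.14 for QDG against Ang II, against 0.08 and −0.02 over all genes. Hmox1, heme oxygenase 1, which is on it, was at 249.65 FPKM in Ang II mouse 3 and at 15.4 to 26.8 FPKM in the other 14 mice. Ang II mouse 3 was also the highest of its group in Gstz1 and the lowest in Gstp1 and Gsr. It passed Dixon's limit, given below, in no member. Whether these values are connected was not tested. None of these lists had a call for QDG against Control. Among markers of other kidney cells, Pdgfrb, a pericyte gene, rose from 0.634 ± 0.634 to 2.35 ± 0.225 FPKM (adjusted p = 0.0468) for Ang II against Control. It was called 4 of 15 times when a mouse was left out, and with median scaling it was at 1.08 in log2 terms (adjusted p = 0.0673), no longer called. Of 9 tested markers of other nephron parts, 1 was called higher for Ang II against Control (5.94% of all genes were called). In that list 1 marker passed the study's threshold for QDG against Ang II (0.816% of all genes). None of 10 proximal tubule markers was called in any comparison, and the part of cell makeup in the values above was not tested.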

How the data were processed

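Kidney RNA-seq values of 15 mice in 3 groups of 5 were analysed, with groups taken from the sample labels. The deposited tables hold 1 value per transcript and mouse, and the authors' unit was read as FPKM from the values: 98.5% to 98.7% of values under 200 implied reads fell within 0.05 of a whole number of reads. The submitters' processing notes name the mm10 build and limma, and the aligner, assembler and read length are not given in the sources used here. Transcripts were matched to GENCODE release 21. Annotated transcripts listed in all 15 files were summed per gene, which gave 13940 genes, and a gene was tested (12372 genes) if 5 or more mice reached 1 FPKM. Assembled transcripts and transcripts listed in part of the files were left out of the sums. Implied totals of 68923000 to 81329500 fragments set the counting error.

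limma 3.58.1 (R 4.3.3) was fitted to log2(FPKM + 1), with 12 residual degrees of freedom, a mean-variance trend and Benjamini-Hochberg adjustment. A fold change on this scale understates that of low genes. The fit was tested on simulated data. Transcripts were fitted alike. Sequence windows came from RefSeq. Tables were made with Python 3.11.15, pandas 2.3.3 and numpy 2.4.6. Values and tests are given for each member called at either threshold and for the most abundant member of each subfamily. From each pathway list the called genes are named. Gstm4, Gstt2 and other members with values outside that rule were chosen after their values were seen, as were Abcc2 and Hmox1. The members and lists were chosen with earlier results of these data known. Alternatives were a pseudocount of 0.1, no filter, median scaling, quantile normalization, all listed or only protein-coding transcripts, a fit of only the groups compared, no trend, and leaving out each mouse.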

Additional observations from a re-analysis of the deposited data

Results flagged for a closer look

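In 12 of 120 groups of 5 mice the highest or the lowest mouse lay far from the other 4, by Dixon's 95% limit of 0.71 for the gap over the range. Chance gives about 1 in 20 such groups. The value was the highest in 8 groups and the lowest in 4, and Control mouse 2 and QDG mouse 3 gave 2 each.

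Sult1d1 was 538 FPKM in QDG mouse 3, where the others had at most 430.3, and the summed Sult genes were 587 FPKM in the same mouse against at most 472. Gstm1 was 356 FPKM in Ang II mouse 1, where the others had at most 273. Gstp1 was 223 FPKM in Control mouse 4, above 179.9 at most. Control mouse 2 had 178 FPKM of Ugt3a2, below 259 at least, and 46.2 FPKM of Gstm2, above 29.1 at most. Gstm4 was 2.37 FPKM in Control mouse 3 and at least 6.07 in the others. Gsta1 was 12.4 FPKM in QDG mouse 2 and at most 3.02 in the others. Control mouse 1 had 1250.4 FPKM of the summed Gst genes, where the others had at least 1468.

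Genes with the widest spread made up the rest. Ugt3a1 was 41.7 FPKM in Ang II mouse 4 and at most 10.4 in the others. Ugt2b5 was 1.36 FPKM in Ang II mouse 5 and at least 24.5 in the others. Ugt1a1 was 19.2 FPKM in QDG mouse 5 and at most 5.75 in the others.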

How the results depend on the processing

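No called value changed direction. Sign changes without a mouse were looked for only in the called members and the most abundant member of each subfamily. Among these, small uncalled differences changed sign for Gstm1, Ugt1a7c and Ugt8a for Ang II against Control, Gsta2, Sult1d1 and Sult2b1 for QDG against Ang II and Gstt1 for QDG against Control. The members' median log2 fold change, near 0 throughout, also changed direction. For Ang II against Control it went from −0.04 to 0.02 with a pseudocount of 0.1 and 0.02 with protein-coding transcripts, and to 0.03 without Control mouse 2. For QDG against Control it went from 0.04 to −0.03 with median scaling. Of the alternatives for main results 228 stayed within the limits set and 51 moved. All genes called for Ang II against Control numbered 735, 408 with only protein-coding transcripts, 456 in a fit of only these groups and 338 to 797 when a mouse was left out. For QDG against Ang II they numbered 224, 58 with only these groups and 53 to 250 without a mouse. For QDG against Control they numbered 16, 80 with all listed transcripts, 6 with protein-coding ones, 4 with only these groups and 0 to 110 without a mouse. Members called at an adjusted p for Ang II against Control went from 0 to 2 with median scaling (Gstk1 and Gstt1), 1 with quantile normalization (Gstk1), 1 with protein-coding transcripts (Ugt3a2, −0.80, adjusted p = 0.0100) and 0 to 1 without a mouse. For QDG against Ang II they went to 1 with quantile normalization (Gstk1) and 0 to 2 without a mouse. Members at the study's threshold went from 1 to 3 for QDG against Ang II with only these groups (Gstz1, Ugt1a1 and Ugt3a1) and 1 to 3 without a mouse, and for QDG against Control to 2 with median scaling (Ugt1a10 and Ugt2b5) and 0 to 2 without a mouse. With protein-coding transcripts only, the summed Gst genes in Ang II were 1370.2 FPKM. The summed Ugt genes were 786, 834 and 708 FPKM in Control, Ang II and QDG, where the retained-intron transcript of Ugt3a2 is left out. Other causes were not tested. Of the values of single members and other counts, 551 stayed, 9 gained a call, 1 lost one and 3 moved. For single members this counts only the fits without a mouse that gave the lowest and the highest value. Over all such fits Ugt1a10 kept its call for QDG against Control in 13 of 15. Calls of genes on the pathway and marker lists were lost more often: of 23 alternatives, Pdgfrb lost its call in 15, Papss1 in 14, Abcg2 in 11, Slc35d1 in 9, Mafk in 8 and Gsr for QDG against Ang II in 9. No paired analysis was possible because the labels give no replicate numbers shared between groups. Depth does not limit the abundant members, but Sult2b1, Ugt2b5, Gstm6, Gsta1, Ugt1a2 and Ugt1a1 rest on few implied reads in some mice. Their lowest values were 0, 0, 1, 22, 48 and 60 reads.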
